A study of Mus musculus with 16 samples.

Results

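The genes described here are 8 transcription regulators that T cell receptor signals are known to induce or that act with such factors: *Nr4a1*, *Nr4a2*, *Nr4a3*, *Egr1*, *Egr2*, *Egr3*, *Nab1* and *Nab2*. They were taken by symbol from a matrix of raw gene counts with 34573 genes, and all 8 were among the 14332 genes that passed the filter on low counts. The cells were CD8+ T cells of C57BL/6 mice. Naive cells (Tn) were isolated from spleen and sorted as CD8+ CD44- CD62L+ at day 0. The other cells were cultured from such naive cells with anti-CD3e at 10 µg/ml and anti-CD28 at 10 µg/ml, which stand in for T cell receptor and costimulatory signals, and IL-2 was added at 300 U/ml after a night. Teff1 cells were sorted as CD8+ PD-1+ TIM-3- at day 2, Teff2 cells as CD8+ PD-1+ TIM-3- at day 5, and Tex cells as CD8+ PD-1+ TIM-3+ at day 5. Each state had 3 RNA-seq libraries, each from 0.2 M cells. Whether the 3 were separate animals or cultures is not labelled, and the p-values therefore rest on the spread among these libraries alone, which may be technical. The stimulation was given in vitro to cells without a labelled antigen receptor transgene, and no unstimulated culture is among the samples, so activation, time in culture and IL-2 cannot be told apart. The earliest activated sample was from day 2, and no sample covers the first hours.

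The *Nr4a* genes encode orphan nuclear receptors and the *Egr* genes zinc finger factors, both transcribed within an hour or so of a T cell receptor signal without new protein synthesis. In CD8+ T cells the NR4A receptors are known to promote exhaustion and tolerance, *Nr4a1* is widely used as a reporter of receptor signal strength, and EGR2 and EGR3 are known to restrain T cell responses. NAB1 and NAB2 are co-regulators that bind EGR1, EGR2 and EGR3 and are best known for repressing their activity, and *Nab2* is itself a known EGR target.

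The promoters are shown because the *Nr4a* and *Egr* genes are classed together as genes of immediate transcription, and the letters let a reader see which recognition sequences of activating factors lie near each start. RefSeq promoters (GRCm38.p6, 250 bases before to 50 after the start) were taken for 6 of the 8 genes, and *Egr1* and *Egr3* are named only. Capitals mark matches on either strand to the core TGACG of the cAMP response element (CRE, bound by CREB and ATF factors), to the CRE-like site TGCGTCA, to the EGR motif GCGNGGGCG, or to the CArG box bound by SRF. Of the 5 *Egr2* entries, the one shown was chosen after its letters were seen.
Nr4a1 promoter, chr15:101266596-101266895, plus strand: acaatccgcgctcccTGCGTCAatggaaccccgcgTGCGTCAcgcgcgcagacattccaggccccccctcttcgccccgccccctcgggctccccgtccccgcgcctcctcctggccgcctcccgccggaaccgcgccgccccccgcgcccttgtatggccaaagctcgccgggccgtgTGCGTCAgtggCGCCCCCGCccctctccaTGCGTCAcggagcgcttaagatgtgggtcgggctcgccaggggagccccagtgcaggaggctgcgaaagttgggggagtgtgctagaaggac
Nr4a2 promoter, chr2:57123954-57124253, minus strand: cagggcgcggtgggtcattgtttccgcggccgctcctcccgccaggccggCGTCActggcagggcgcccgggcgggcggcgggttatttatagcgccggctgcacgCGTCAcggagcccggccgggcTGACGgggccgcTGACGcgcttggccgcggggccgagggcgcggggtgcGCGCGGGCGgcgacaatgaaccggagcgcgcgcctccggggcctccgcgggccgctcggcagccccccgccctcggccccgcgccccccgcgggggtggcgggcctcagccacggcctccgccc
Nr4a3 promoter, chr4:48045055-48045354, plus strand: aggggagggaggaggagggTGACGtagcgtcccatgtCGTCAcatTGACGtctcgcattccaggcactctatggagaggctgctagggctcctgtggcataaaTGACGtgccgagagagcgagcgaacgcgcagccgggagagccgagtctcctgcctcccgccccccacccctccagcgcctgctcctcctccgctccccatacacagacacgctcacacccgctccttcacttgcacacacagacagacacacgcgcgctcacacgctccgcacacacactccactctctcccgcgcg
Egr2 promoter (entry 3), chr10:67537619-67537918, plus strand: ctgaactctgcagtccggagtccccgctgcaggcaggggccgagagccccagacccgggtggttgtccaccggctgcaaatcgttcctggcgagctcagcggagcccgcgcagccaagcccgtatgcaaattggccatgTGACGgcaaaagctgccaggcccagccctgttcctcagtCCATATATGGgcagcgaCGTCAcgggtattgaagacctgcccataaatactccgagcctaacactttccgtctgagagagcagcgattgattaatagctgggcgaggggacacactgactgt
Nab1 promoter, chr1:52500399-52500698, minus strand: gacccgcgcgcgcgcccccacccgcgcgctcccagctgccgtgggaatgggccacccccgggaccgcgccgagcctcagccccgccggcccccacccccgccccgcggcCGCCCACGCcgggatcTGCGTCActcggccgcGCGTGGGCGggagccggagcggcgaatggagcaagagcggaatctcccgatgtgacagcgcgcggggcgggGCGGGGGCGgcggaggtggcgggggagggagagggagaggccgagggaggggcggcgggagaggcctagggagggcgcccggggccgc

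The core TGACG occurred 4 times in each of the *Nr4a1*, *Nr4a2* and *Nr4a3* promoters. Of 32851 RefSeq promoters of the same length, 20.8% held it at least once and 0.231% at least 4 times. In *Nr4a1* the 4 matches lie inside 4 copies of TGCGTCA, a site that 2.12% of promoters held, and this was the only promoter of all scanned with 4 copies (0.00304%). *Egr2* had 2 core matches (5.01% of promoters had at least 2) and 1 CArG box, which 1.63% of promoters held, in the entry shown and in entries 4 and 5, while entry 2 had the CArG box alone and entry 1 no match to any motif. *Nab1* had 3 EGR motifs (0.195% of promoters had at least 3, and 5.55% at least 1), *Nr4a1* and *Nr4a2* had 1 each, and *Nab2* had none. *Nab1* also had 1 copy of TGCGTCA with 1 core match inside it, and *Nab2* had no match to any motif. The full CRE TGACGTCA (1.79% of promoters) and the NR4A monomer site AAAGGTCA (1.51%) matched none of the promoters taken for these genes. A match describes letters in this window and no binding was measured.

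Library totals were 14.7 to 21.2 M counts, so 3 counts, the floor used here, correspond to 0.142 to 0.205 CPM (counts divided by the TMM-scaled library size in M). All 7 CD8 T cell markers were detected in every library, with a summed level of 2860 to 4520 CPM in Tn and 2230 to 2750 CPM in the cultured states. The Tn libraries also held transcripts of other spleen cells. The 9 B cell markers summed to 1290, 582 and 2130 CPM in Tn replicates 1 to 3 against 91.7 to 306 CPM in cultured cells, the 5 MHC class II genes to 1390, 119 and 2110 against 29.2 to 125 CPM, and the 11 macrophage and monocyte markers to 299, 80.9 and 151 against 4.47 to 11.6 CPM. The 7 NK cell markers summed to 178, 45.2 and 313 CPM in Tn against 13.0 to 76.6 CPM, and the 5 erythroid genes to 87.3, 78.2 and 38.2 against 0.378 to 3.58 CPM. All markers of these lists had counts in every Tn library, and their part in the differences from Tn was not tested. In bulk RNA, fewer cells with a transcript and less transcript per cell cannot be told apart.

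At day 2 the NR4A and EGR factors and *Nab2* were all higher than in naive cells, and they were still higher at day 5 in both TIM-3- and TIM-3+ cells, whereas *Nab1* did not pass the test in any comparison. In edgeR's quasi-likelihood test over all genes, 7 of the 8 genes rose in Teff1 against Tn (24.5% of all tested genes rose and 24.5% fell), 7 of 8 in Teff2 against Tn (25.6% rose, 23.3% fell) and 7 of 8 in Tex against Tn (27.3% rose, 25.6% fell), and none of the 8 fell. Without Tex replicate 2 the count in Tex was 4, with *Nr4a1*, *Nr4a2* and *Nab2* no longer called. These 3 comparisons share the Tn libraries, so they do not support each other. Over the 8 genes the median log2 fold change against Tn reached 2.02 in Teff1, 2.08 in Teff2 and 1.89 in Tex, beside -0.06, 0.00 and 0.00 over all tested genes. The libraries of Teff1 lay above all Tn libraries for 7 of the 8 genes, which held for 29.6% of all tested genes (31.9% lay below). In Teff2 they lay above for 7 genes (29.8% of all) and below for *Nab1* (29.6% of all), and in Tex above for 6 (32% of all) and below for *Nab1* (31.3%).

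**Figure D1:**
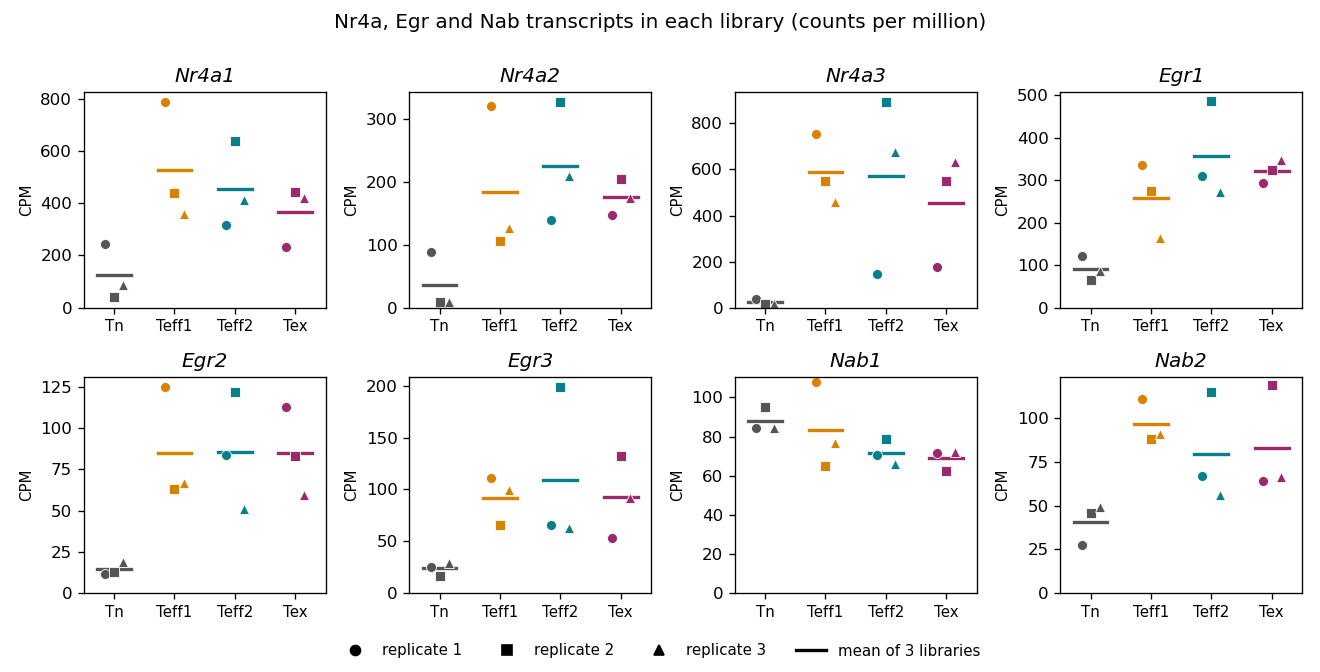
Level of each of the 8 genes in every library, in CPM on a linear axis that starts at 0. Markers show replicates 1 to 3 of Tn, Teff1, Teff2 and Tex and lines the mean of 3 libraries, and *Nab1* alone has its highest mean (87.9 CPM) in Tn.

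*Nr4a3* (chr4:48045078-48086447, plus strand; build GRCm38.p6, also called mm10), whose product is also known as NOR1, had the widest change. It was at 39.1, 16.3 and 15.9 CPM in Tn, 755, 550 and 459 CPM in Teff1, 147, 893 and 677 CPM in Teff2 and 176, 549 and 634 CPM in Tex. Every cultured library exceeded every naive one, and replicate 1 was the low library of both day 5 states. Against Tn its log2 fold change was 4.63 ± 0.70 (SE) in Teff1, a 24.8-fold higher level (adjusted p = 0.000315), 4.59 ± 0.70 in Teff2 (adjusted p = 0.000315) and 4.25 ± 0.69 in Tex (adjusted p = 0.000396). Of all tested genes, 1.55% had a larger log2 fold change in Teff1 against Tn.

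*Nr4a1* (chr15:101253902-101274795), which encodes NUR77, was at 245, 39.4 and 87.2 CPM in Tn, 789, 438 and 357 CPM in Teff1, 315, 637 and 413 CPM in Teff2 and 233, 443 and 420 CPM in Tex. The lowest Tex library lay under the highest Tn library, and the other cultured libraries lay above all of Tn. The log2 fold change was 2.09 ± 0.57 in Teff1 (adjusted p = 0.00983), 1.88 ± 0.57 in Teff2 (adjusted p = 0.0162) and 1.56 ± 0.56 in Tex (adjusted p = 0.0338). The sizes depend on Tn replicate 1: without it they were 3.06, 2.84 and 2.53. The call in Tex was lost when Tn replicate 2 or 3 or Tex replicate 2 or 3 was left out (adjusted p = 0.0859, 0.109, 0.0847 and 0.0761), and with only the groups compared in the fit (adjusted p = 0.0562), and that in Teff2 without Tn replicate 3 (adjusted p = 0.0631).

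*Nr4a2* (chr2:57106830-57124003, minus strand), which encodes NURR1, was at 88.6, 9.67 and 9.19 CPM in Tn, 321, 106 and 126 CPM in Teff1, 140, 327 and 209 CPM in Teff2 and 148, 205 and 174 CPM in Tex. Again Tn replicate 1 stood above the other naive libraries, but below every cultured one. The log2 fold change was 2.37 ± 0.78 in Teff1 (adjusted p = 0.0248), 2.65 ± 0.79 in Teff2 (adjusted p = 0.0150) and 2.30 ± 0.78 in Tex (adjusted p = 0.0261). Without Tn replicate 1 these were 4.29, 4.58 and 4.22. The Teff1 call was lost without Tn replicate 2, Tn replicate 3 or Teff1 replicate 1 (adjusted p = 0.0707, 0.0713 and 0.0906, the last with a change of 1.72), and the Tex call without Tn replicate 2, Tn replicate 3 or Tex replicate 2 (adjusted p = 0.0751, 0.0743 and 0.0571). The *Nr4a2* locus shares 670 bases with LOC105244150, annotated as protein coding, and the kit used does not mark strand, so their reads cannot be told apart there.

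*Egr1* (chr18:34861207-34864956), the founding member of its family, was at 122, 65.8 and 86.8 CPM in Tn, 337, 275 and 164 CPM in Teff1, 310, 487 and 272 CPM in Teff2 and 294, 323 and 348 CPM in Tex. No cultured library reached down to the naive ones, and Tex had the narrowest spread of the cultured states (322 ± 27.0 CPM, SD, n = 3). The log2 fold change against Tn was 1.50 ± 0.30 in Teff1 (adjusted p = 0.00189), 1.96 ± 0.31 in Teff2 (adjusted p = 0.000386) and 1.81 ± 0.31 in Tex (adjusted p = 0.000520).

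*Egr2* (chr10:67534469-67542188), known in T cells for its part in anergy and in restraining effector responses, was at 11.5, 12.8 and 19.0 CPM in Tn, 125, 63.2 and 66.8 CPM in Teff1, 83.5, 122 and 51.0 CPM in Teff2 and 113, 83.1 and 59.2 CPM in Tex. Its means in the cultured states were 84.9, 85.7 and 85.1 CPM, with SDs of 34.6, 35.8 and 27.0 CPM (n = 3 each), and all those libraries lay above Tn. The log2 fold change was 2.55 ± 0.39 in Teff1 (adjusted p = 0.000311), 2.57 ± 0.39 in Teff2 (adjusted p = 0.000288) and 2.56 ± 0.39 in Tex (adjusted p = 0.000249). *Egr2* shares 1712 bases with the lncRNA Gm32255, from which its reads cannot be told apart there.

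*Egr3* (chr14:70077317-70082613), which acts with *Egr2* in T cells, was at 24.9, 17.0 and 29.4 CPM in Tn, 111, 65.4 and 99.5 CPM in Teff1, 65.4, 199 and 63.0 CPM in Teff2 and 53.1, 132 and 92.2 CPM in Tex. The groups did not overlap with Tn, and replicate 2 was the high library of both day 5 states. It rose by a log2 fold change of 1.95 ± 0.47 in Teff1 (adjusted p = 0.00489), 2.20 ± 0.47 in Teff2 (adjusted p = 0.00255) and 1.96 ± 0.47 in Tex (adjusted p = 0.00422). Without Teff2 replicate 2 the Teff2 value was 1.50 and was still called.

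*Nab2* (chr10:127660918-127666703, minus strand) was at 27.7, 46.1 and 49.2 CPM in Tn, 111, 88.5 and 90.9 CPM in Teff1, 66.8, 115 and 56.4 CPM in Teff2 and 64.1, 119 and 66.4 CPM in Tex. All cultured libraries lay above the naive ones, those of day 5 by the smaller margin. The log2 fold change was 1.24 ± 0.32 in Teff1 (adjusted p = 0.00769), 0.95 ± 0.32 in Teff2 (adjusted p = 0.0272) and 1.02 ± 0.32 in Tex (adjusted p = 0.0186). The day 5 calls were lost without Tn replicate 1 (adjusted p = 0.106 in Teff2 and 0.0764 in Tex) and without replicate 2 of Teff2 (adjusted p = 0.113) or of Tex (adjusted p = 0.0960). *Nab2* shares 70 bases with *Stat6*, whose level was 285, 300 and 310 CPM in Tn and 208 to 248 CPM in the cultured states. The part of the shared bases in the *Nab2* counts was not tested.

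*Nab1* (chr1:52455849-52500712, minus strand), the close relative of *Nab2*, was at 84.3, 95.3 and 84.2 CPM in Tn, 108, 65.2 and 76.5 CPM in Teff1, 70.8, 78.6 and 66.0 CPM in Teff2 and 71.8, 62.6 and 72.3 CPM in Tex. Teff1 overlapped with Tn, while all day 5 libraries lay a little below Tn. The log2 fold change was -0.08 (95% interval -0.47 to 0.31; adjusted p = 0.733) in Teff1, -0.29 (-0.68 to 0.10; adjusted p = 0.196) in Teff2 and -0.35 (-0.74 to 0.04; adjusted p = 0.117) in Tex. With upper-quartile scaling, which moved the median of all genes in Tex against Tn from 0.00 to -0.12, *Nab1* was called lower in Tex (adjusted p = 0.0434). Its promoter with 3 EGR motifs and that of *Nab2* with none stand beside these values as letters only.

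**Figure D2:**
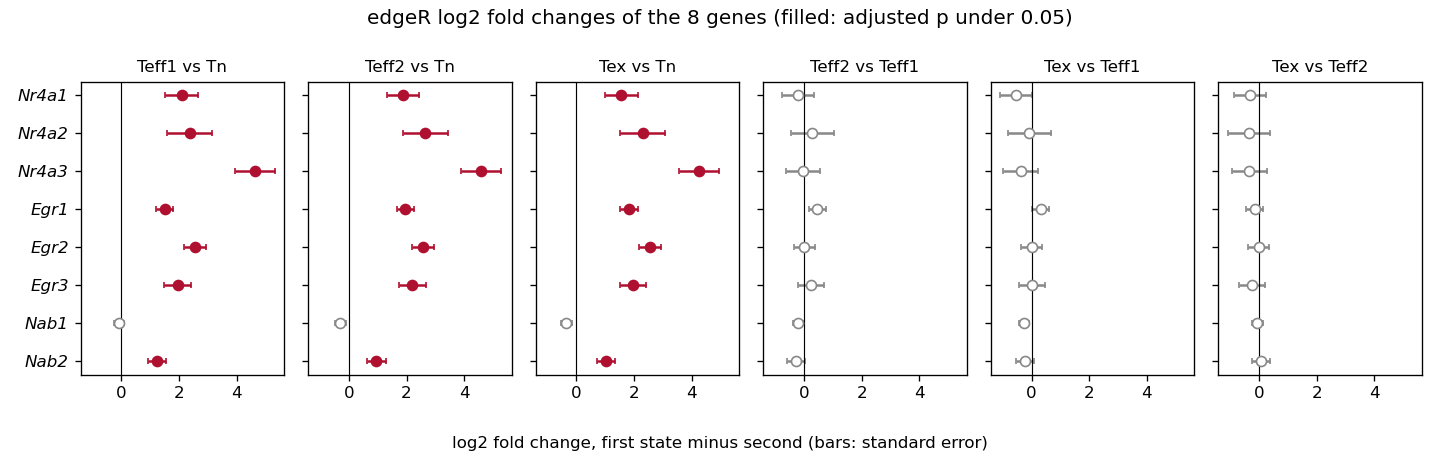
log2 fold changes of the 8 genes in the 6 comparisons, with standard errors as bars and filled points where edgeR's adjusted p was under 0.05. *Nr4a3* lies farthest to the right against Tn (4.63, 4.59 and 4.25), and every point between cultured states is open.

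The ordering of the states could not be resolved beyond naive against cultured. Mean *Nr4a1* ran from Teff1 (528 ± 230 CPM) over Teff2 (455 ± 165 CPM) and Tex (365 ± 115 CPM) to Tn (124 ± 107 CPM), and *Nr4a3* ran in the same order. *Nr4a2*, *Egr1*, *Egr2* and *Egr3* had their highest mean in Teff2, *Nab2* in Teff1 and *Nab1* in Tn. For every one of the 8 genes, the cultured states that neighbour each other in this order overlapped in their libraries.

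Between day 2 and day 5, in TIM-3- cells, 0 of the 8 genes were called (0.67% of all genes were), and 0 had an unadjusted p under 0.05 by edgeR, DESeq2 or limma on the authors' log2 values. The log2 fold changes of Teff2 against Teff1 ran from -0.29 for *Nab2* to 0.46 for *Egr1* (95% interval -0.19 to 1.11), and the interval of *Nr4a3* was -1.35 to 1.27, so changes of over 2-fold in either direction remain within it. In Tex against Teff1, also 0 of 8 were called (3.01% of all genes were), and again 0 at an unadjusted p under 0.05 by the same 3 tools. The values ran from -0.53 for *Nr4a1* (-1.73 to 0.66) to 0.31 for *Egr1* (-0.34 to 0.96). The libraries of all 8 genes overlapped in both comparisons, whereas 8.39% of all genes lay wholly higher and 6.19% wholly lower in Teff2 than in Teff1, and 11.4% and 9.67% in Tex than in Teff1.

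TIM-3+ and TIM-3- cells of the same day did not differ detectably in these genes. In Tex against Teff2, 0 of the 8 genes were called, where the whole table gave 1 called gene (0.00698%), *Havcr2*, which encodes the TIM-3 protein used for the sort (a call lost on leaving out most of the libraries). All 8 overlapped, whereas 2.46% of all genes lay wholly higher and 2.35% wholly lower in Tex. At an unadjusted p under 0.05 the count was 0 by edgeR, DESeq2 and limma. The log2 fold changes ran from -0.36 for *Nr4a2* (-1.97 to 1.25) to 0.07 for *Nab2* (-0.63 to 0.76). The same-numbered libraries of Tex and Teff2 deviated together (correlation 0.85, 0.78 and 0.75), and a fit within these pairs called 221 of 13096 genes (1.69%). Of the 8 genes 0 were called in it either, and 2 had an unadjusted p under 0.05. These were *Nr4a1* and *Nr4a2*, at -0.32 ± 0.11 (adjusted p = 0.199) and -0.29 ± 0.13 (adjusted p = 0.285).

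The pairs differed among themselves. In replicate 2, 7 of the 8 genes were lower in TIM-3+ cells, with log2 differences from -0.33 for *Nab1* to -0.70 for *Nr4a3*, and *Nab2* was at 0.05. The share of all genes that were lower in this pair was not counted. In replicate 3, *Egr1*, *Egr2* and *Egr3* were higher in TIM-3+ cells by 0.36, 0.21 and 0.55, and in replicate 1 *Nr4a1* was at -0.43 and *Egr2* at 0.43. None of the 8 genes had the same sign in all 3 pairs.

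**Figure D3:**
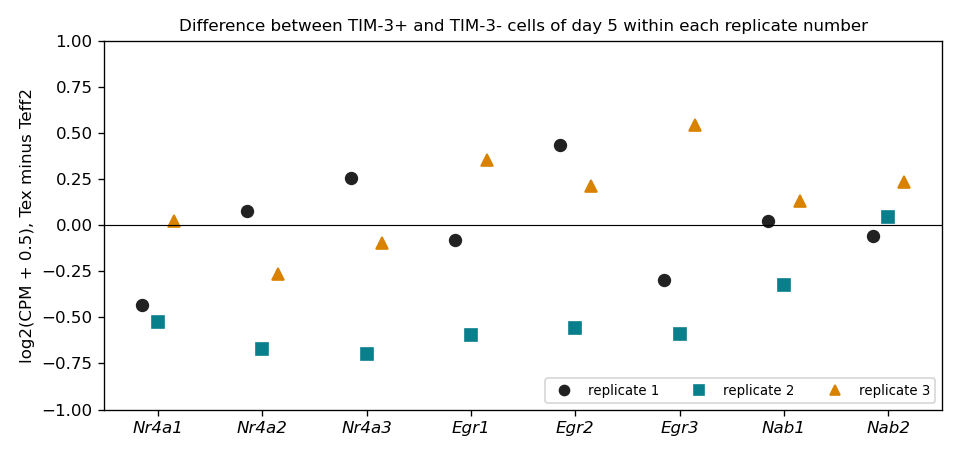
Difference between TIM-3+ (Tex) and TIM-3- (Teff2) cells of day 5 for each replicate number, in log2(CPM + 0.5). Replicate 2 lies below 0 for 7 genes, with *Nr4a3* at -0.70, and replicates 1 and 3 scatter on both sides of 0. The same count over all genes was not made.

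Some ratios within the families did not overlap between naive and cultured libraries, though none could pass an exact permutation test with 3 libraries a group. Only the ratios named here were taken, and how often ratios of other genes failed to overlap was not counted. As a ratio of CPM on the log2 scale, *Nr4a3* to *Nr4a1* ran from -2.65 to -1.28 in Tn and from -0.07 to 0.36 in Teff1, and *Nab2* to *Nab1* ran from -1.60 to -0.78 in Tn and from 0.04 to 0.44 in Teff1. Neither ratio overlapped with Tn in Teff1, Teff2 or Tex. With 3 libraries against 3, an exact two-sided permutation test cannot give less than p = 0.1. Both ratios had this value in all 3 comparisons with Tn, which only restates the lack of overlap. *Nr4a3* to *Nr4a2* ran from -1.18 to 0.79 in Tn and 1.23 to 2.37 in Teff1 (p = 0.1 by the same exact test) but overlapped with Tn in Teff2 (p = 0.4) and Tex (p = 0.3). *Egr2* to *Egr1* ran from -3.40 to -2.19 in Tn and -2.12 to -1.30 in Teff1 but overlapped with Tn at day 5. A change of such a ratio shows unequal change only, since counts are not scaled by transcript length here. The 3 *Nr4a* genes together summed to 372, 65.4 and 112 CPM in Tn, 1870, 1090 and 942 CPM in Teff1, 603, 1860 and 1300 CPM in Teff2 and 558, 1200 and 1230 CPM in Tex.

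The naive libraries were not alike in signal-induced genes, and *Nr4a1* and *Nr4a2* were among them. Tn replicate 1 exceeded the mean of replicates 2 and 3 by 3.17 for *Nr4a2*, 2.05 for *Nr4a1* and 1.26 for *Nr4a3* on the log2 scale, but by 0.69 for *Egr1* and 0.15 for *Egr3*, and by -0.42 for *Egr2* and -0.77 for *Nab2*, where it was the lower one. Of 23 other immediate early genes, 15 were highest in the same library, 3 were lowest in it (*Dusp2*, *Fosl1* and *Ier3*) and 5 were neither. How often all tested genes were highest or lowest in it was not counted. Among the high ones, the AP-1 gene *Fosb* was at 410, 9.40 and 43.4 CPM in Tn replicates 1 to 3, its relative *Fos* at 427, 132 and 117 CPM, the NF-kappaB feedback gene *Tnfaip3* at 2010, 457 and 128 CPM and the activation factor *Irf4* at 82.9, 7.01 and 30.1 CPM. This library also had the highest macrophage and monocyte sum, and replicate 2, lowest for *Nr4a1* (39.4 CPM), had the lowest sums of B cell, MHC class II, macrophage and NK cell markers. Replicate 3 had the highest B cell, MHC class II and NK cell sums and the lowest erythroid sum (38.2 CPM). Yet it was lowest for *Nr4a2* (9.19 CPM) and *Nr4a3* (15.9 CPM), close to replicate 2 (9.67 and 16.3 CPM). The part of these in the *Nr4a* values was not tested. Leaving out Tn replicates 1 and 3, *Nr4a1* and *Nr4a2* in Teff1 against Tn stood at 3.73 and 4.24, *Egr3* at 2.43 and *Nab2* at 1.06. Replicate 2 was then the only naive library, so no calls are given for these values.

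**Figure D4:**
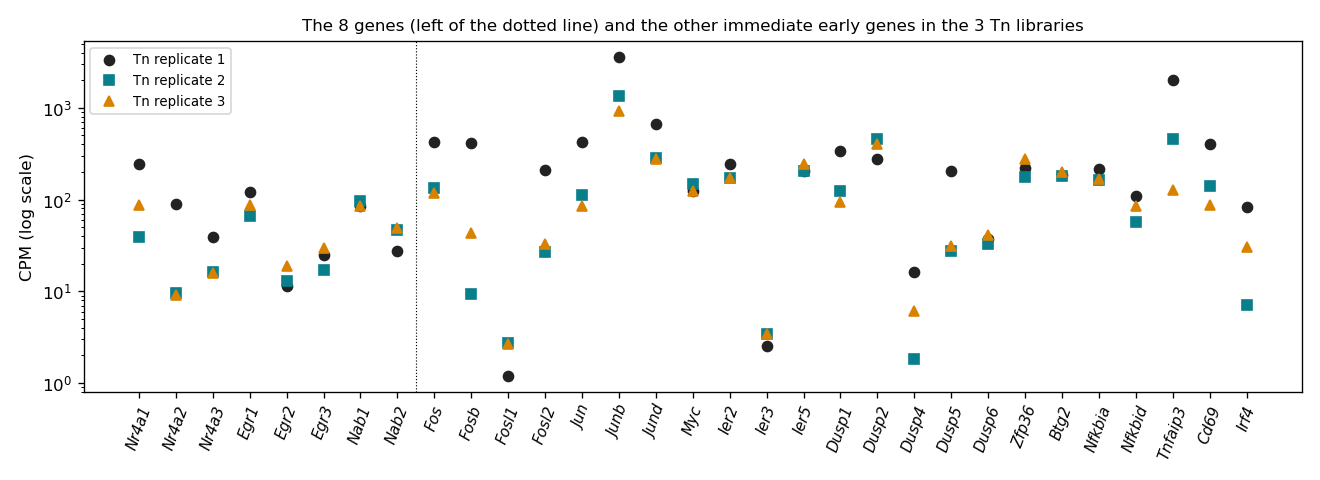
Levels of the 8 genes and of 23 other immediate early genes in the 3 Tn libraries, in CPM on a log axis. Replicate 1 stands above the others for *Nr4a1*, *Nr4a2* and *Nr4a3* and for genes such as *Fosb* (410 against 9.40 and 43.4 CPM), but not for *Egr2* or *Nab2*.

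Other immediate early genes were called in both directions. Of a list of 23, all tested, 5 rose (21.7%, beside 24.5% of all genes) and 11 fell (47.8%, beside 24.5% of all genes) in Teff1 against Tn (median log2 fold change -0.81), 6 rose and 11 fell in Teff2 (-0.73) and 6 rose and 11 fell in Tex (-0.53). Without Tn replicate 1 the counts were 7 up and 10 down in Teff1 (-0.58), 9 and 9 in Teff2 and 8 and 8 in Tex. With that library left out, 2971, 3133 and 3407 of 14598 genes rose in Teff1, Teff2 and Tex, and 2906, 2818 and 3184 fell. In that setting both shares of the list were larger than those of all genes. With all libraries in, the share that rose was near that of all genes (26.1% in Teff2 and Tex, beside 25.6% and 27.3%). The difference from the *Nr4a* and *Egr* genes was not tested. *Fos* fell by 4.42 ± 0.65 in Teff1 (adjusted p = 0.000258), from the naive levels above to 16.5, 8.94 and 6.18 CPM, and *Tnfaip3* fell by 3.90 ± 0.76 (adjusted p = 0.00147). These sizes lean on Tn replicate 1 (-3.56 and -2.34 without it), and the fall of *Fosb* by 4.48 ± 1.20 (adjusted p = 0.00901) was not called without it (-1.93, adjusted p = 0.0861). The 5 that rose were *Dusp4*, a phosphatase of MAP kinases (4.38 ± 0.72, adjusted p = 0.000496, and 5.38 without Tn replicate 1), *Irf4*, *Fosl1*, *Myc* and *Dusp6*, the last 4 named for completing the count. *Dusp4* was at 16.2, 1.84 and 6.07 CPM in Tn, 241, 184 and 76.8 CPM in Teff1 and 134 to 354 CPM at day 5. The fit within the Tex and Teff2 pairs called 2 of the 23 higher in Tex, *Dusp5* (0.72 ± 0.11, adjusted p = 0.0200) and *Ier3* (0.72 ± 0.12, adjusted p = 0.0241). Over all 13096 genes in that fit, 126 were called higher and 95 lower.

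**Figure D5:**
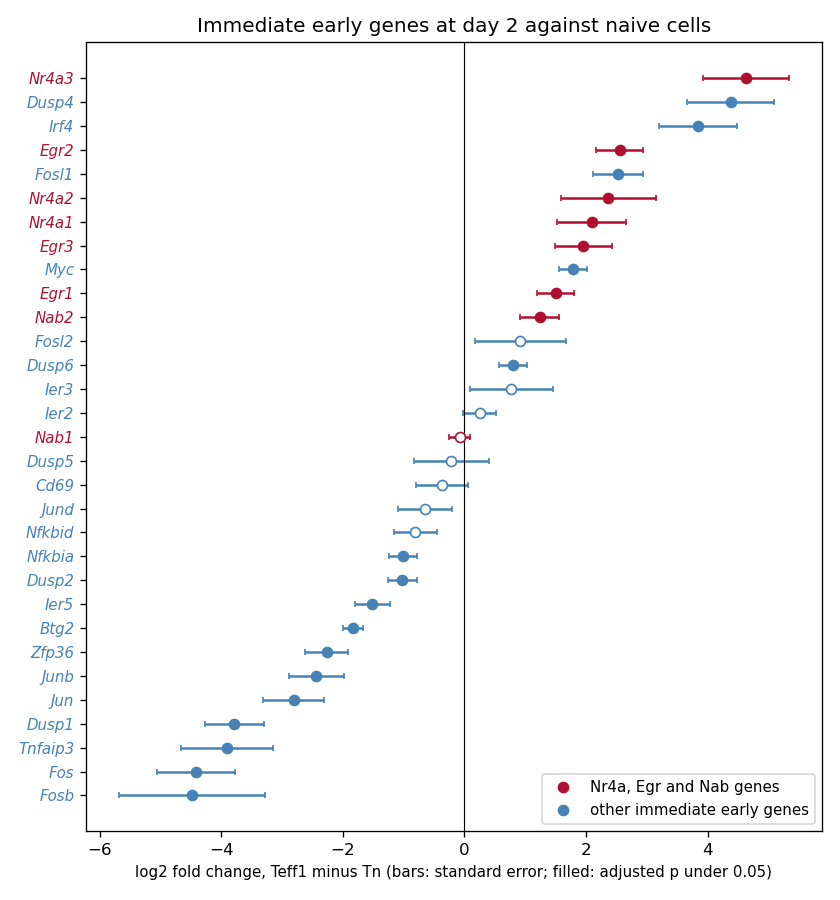
log2 fold changes in Teff1 against Tn of the 8 genes (red) and the 23 other immediate early genes (blue), with standard errors as bars and filled points at an adjusted p under 0.05. The *Nr4a* and *Egr* genes lie between 1.50 and 4.63, and the AP-1 genes *Fos* and *Fosb* lie at -4.42 and -4.48.

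Genes upstream of these factors, in the calcineurin, NFAT, MAP kinase, SRF and MEF2 pathways, mostly did not pass the test. Of 20, all tested, 1 rose and 6 fell in Teff1 against Tn, 2 rose and 6 fell in Teff2 and 3 rose and 6 fell in Tex. The 6 that fell are 30% of the list, near the 24.5%, 23.3% and 25.6% of all genes that fell, and the risers are 5%, 10% and 15% beside 24.5%, 25.6% and 27.3% of all genes. *Ppp3ca*, the catalytic subunit alpha of calcineurin, fell by 1.67 ± 0.26 in Teff1 (adjusted p = 0.000403), from 96.7, 87.8 and 106 CPM to 37.7, 27.9 and 25.7 CPM. *Mef2d*, which is known to act at the *Nr4a1* promoter, fell by 1.06 ± 0.14 (adjusted p = 0.000149) and *Elk4*, a partner of SRF, fell by 1.01 ± 0.29 (adjusted p = 0.0139), the latter not called without Teff1 replicate 3 (adjusted p = 0.0605). Between cultured states *Elk3* rose from Teff1 to Teff2 (0.87 ± 0.16, adjusted p = 0.0310) and to Tex (0.78 ± 0.16, adjusted p = 0.0261), and *Mapk3* from Teff1 to Tex (0.72 ± 0.16, adjusted p = 0.0345), each call being lost on leaving out any 1 of the Teff1 libraries.

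Of 6 family and partner genes, 4 passed the filter. *Egr4*, the remaining *Egr* gene, had 1, 0 and 3 counts in the Tn libraries and was at 14.7, 2.66 and 3.94 CPM in Teff1, 6.28, 2.77 and 1.29 CPM in Teff2 and 7.36, 1.57 and 1.04 CPM in Tex. It was called higher in all 3 comparisons with Tn (adjusted p = 0.00138, 0.00375 and 0.00354), and no fold is given against so few counts. *Rxra*, a retinoid receptor that can pair with NR4A1 and NR4A2, changed by -2.48 ± 0.73 in Teff1 (adjusted p = 0.0151), -4.08 ± 0.80 in Teff2 (adjusted p = 0.00151) and -2.68 ± 0.74 in Tex (adjusted p = 0.00969). In Teff1 the *Rxra* call was lost without Teff1 replicate 2 or 3 (adjusted p = 0.0582 and 0.0564), and without replicate 1 of the cultured state the values were -3.14, -4.88 and -3.86. The fit within the Tex and Teff2 pairs called *Rxra* higher in Tex (1.31 ± 0.26, adjusted p = 0.0433). *Chd4*, which NAB2 is known to bind, rose by 0.47 ± 0.18 in Teff1 (adjusted p = 0.0459), a call lost without any 1 of the Tn libraries (adjusted p = 0.101, 0.0654 and 0.137).

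Genes linked to EGR2 and EGR3 in tolerant T cells were called in both directions. Of 14, 13 were tested: 6 rose and 4 fell in Teff1 against Tn, 7 rose and 3 fell in Teff2, and 8 rose and 4 fell in Tex. The risers are 46.2%, 53.8% and 61.5% of those tested, beside 24.5%, 25.6% and 27.3% of all genes, and the falls, 30.8%, 23.1% and 30.8%, are near the 24.5%, 23.3% and 25.6% of all genes. *Lag3*, an inhibitory receptor, rose by 5.91 ± 0.44 in Teff1 (adjusted p = 4.96e-06), from 2.98, 2.04 and 5.16 CPM to 207, 247 and 166 CPM. *Tnfrsf9*, the costimulatory receptor 4-1BB, rose by 5.37 ± 0.32 (adjusted p = 1.79e-06) and *Cdkn1a*, a cell cycle inhibitor, by 4.48 ± 1.01 (adjusted p = 0.00345; 5.94 without Tn replicate 1 and 3.42 without Teff1 replicate 1), while *Dgka*, a diacylglycerol kinase that dampens receptor signals, fell by 2.26 ± 0.32 (adjusted p = 0.000195), from 1230, 1280 and 1390 CPM to 311, 266 and 236 CPM. In the fit to all libraries, *Tnfrsf9* was the 1 of the 13 called between cultured states, higher in Tex than in Teff1 by 1.24 ± 0.26 (adjusted p = 0.0295), and not without any 1 of the Teff1 libraries (adjusted p = 0.0863 to 0.103) or Tex replicate 2 or 3 (0.0844 and 0.121). The fit within the Tex and Teff2 pairs called 2 of the 13 higher in Tex, beside 126 of all 13096 genes. These were the stress gene *Ndrg1* (0.60 ± 0.10, adjusted p = 0.0204) and *Cdkn1a* (0.44 ± 0.08, adjusted p = 0.0377). *Ndrg1* was at 37.6, 45.4 and 42.2 CPM in Tex and 27.7, 28.6 and 25.7 CPM in Teff2.

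Of 8 genes linked to NR4A in exhausted CD8+ T cells, 7 were tested, and 3 rose and 3 fell in Teff1, 3 rose and 2 fell in Teff2 and 4 rose and 1 fell in Tex against Tn. Over so short a list these are shares of 42.9%, 42.9% and 57.1% that rose and 42.9%, 28.6% and 14.3% that fell, beside 24.5% to 27.3% and 23.3% to 25.6% of all genes. *Tigit*, an inhibitory receptor, rose by 4.37 ± 0.63 in Teff1 (adjusted p = 0.000224), 5.16 ± 0.64 in Teff2 (adjusted p = 8.63e-05) and 5.43 ± 0.65 in Tex (adjusted p = 5.57e-05), and these were 5.20, 5.99 and 6.26 without Tn replicate 1. *Ctla4* was at 84.3, 10.5 and 9.51 CPM in Tn, another gene with Tn replicate 1 high, and rose by 3.02 ± 0.92 in Teff1 (adjusted p = 0.0171, and 0.0552 or 0.0568 without Tn replicate 2 or 3; 4.82 without Tn replicate 1). The 3 that fell in Teff1 were *Cd38* (-3.44 ± 0.998, adjusted p = 0.0137), *Entpd1* (-2.54 ± 0.77, adjusted p = 0.0172) and *Havcr2* (-2.18 ± 0.69, adjusted p = 0.0209). *Cd38* was at 20.7, 3.06 and 33.2 CPM in Tn, low in the replicate with the lowest B cell and MHC class II sums. Its call was lost without Tn replicate 3 (-2.75, adjusted p = 0.0529). Without Tn replicates 1 and 3 its change was -0.83. The same naive replicate was lowest for *Entpd1* (7.49, 2.52 and 9.14 CPM) and *Havcr2* (2.45, 0.409 and 2.20 CPM). *Havcr2* had 11, 8 and 3 counts in the Teff1 libraries, which overlapped with Tn and were sorted as TIM-3-. *Pdcd1* (4.32 ± 0.38 in Teff1, adjusted p = 1.16e-05) and *Havcr2* (5.97 ± 0.73 in Tex against Teff2, adjusted p = 0.0431) encode the proteins the cells were sorted by. Within the Tex and Teff2 pairs *Entpd1*, which encodes the ectonucleotidase CD39, was also called higher in Tex (1.16 ± 0.24, adjusted p = 0.0482). *Tox*, a factor known to drive exhaustion, fell by 1.62 ± 0.30 in Tex against Tn (adjusted p = 0.000860), from 27.4, 39.6 and 33.5 CPM to 10.5, 12.1 and 10.1 CPM. These lists were chosen with earlier results of these data known.

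Genes whose pattern was closest to each of the 8 were ranked by the root mean square difference of log2 levels, centred per gene, over the 12 libraries among 12508 genes. The closest to *Nr4a3* were *Ska1* (0.27), *Aspm* (0.28) and *Spc24* (0.30). *Egr1* was closest to *Map3k8* (0.29), *Mapkapk2* (0.31) and *Slc5a3* (0.32), *Egr2* to *Zfp948* (0.26), *Fosl1* (0.35) and *Mrps6* (0.36), and *Egr3* to *Snrpa* (0.38), *Sap30* (0.38) and *Cenpv* (0.39). *Nr4a1* was closest to *Arhgap33* (0.47), *Litaf* (0.47) and *Metrnl* (0.49), *Nr4a2* to *Nfil3* (0.59), *Gfod1* (0.60) and *Rgs1* (0.62), *Nab2* to *Cdca4* (0.18), *Tssc4* (0.23) and *Tbl2* (0.23), and *Nab1* to *Kpna4* (0.08), *Exoc3* (0.09) and *Strn* (0.10). None of the 8 was among the 3 closest of another. Counted from *Nr4a1*, *Egr1* was number 21, *Egr3* number 33, *Nr4a2* number 89 and *Nr4a3* number 4543. The measure takes in the size of a change, and the SD of centred log2 levels was 1.16 for *Nr4a1* and 2.07 for *Nr4a3*. The numbers also depend on the gene counted from. From *Nr4a3*, *Egr3* was number 544 at a difference of 1.25, which exceeds the 1.12 between *Nr4a1* and *Nr4a3*. The points share libraries and the naive against cultured difference, so the likeness is a description and carries no p.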

How the data were processed

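RNA-seq of 12 libraries, 3 each of Tn, Teff1, Teff2 and Tex, was read from the deposited matrix of raw counts per gene, whole numbers with no normalization, of which 11535 genes had no count. A second deposited matrix of the authors, normalized values on a log2 scale, was used in 1 alternative. Named in the submitters' processing notes are HISAT2, HTSeq, DESeq2, BWA, Juicer and mm10, with no roles or versions. Per the labels' protocols the library kit was NEBNext Ultra RNA, which does not mark strand. The 4 Hi-C samples were not analysed here.

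The counts were tested with edgeR 4.0.16 (R 4.3.3; TMM, filterByExpr with a minimum count of 10, quasi-likelihood F test with 1 coefficient per group over the 12 libraries). A gene was called at a Benjamini-Hochberg adjusted p under 0.05 over the 14332 genes tested. Standard errors were taken as the log2 fold change over the square root of F, and 95% intervals used the t quantile of the fit's degrees of freedom. CPM used TMM-scaled library sizes, with a pseudocount of 0.5 for log2 levels. The floor of 3 counts covers counting error only. The steps were tested on simulated data. Alternatives were other scalings, DESeq2 1.42.0, no filter, only the compared groups, a replicate block, limma 3.58.1 on the authors' log2 values, and leaving out libraries.

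Replicate numbers come from the titles. Those of Tex and Teff2 pair the libraries (correlation of deviations 0.75 to 0.85, at most 0.12 between unequal numbers), and no other comparison met this. The 8 genes, the gene lists and the motifs were chosen with earlier results of these data known. All 8 genes are named in each comparison. Of each list up to 3 called genes with the largest change in the direction of most calls and 1 in the other are named per comparison, given a higher group of 2 CPM or more, in the text mainly for Teff1 against Tn, and 1 gene of these lists is not reported here. Sequences, starts and coordinates are RefSeq's, GRCm38.p6. *Fcmr* and *Adgre1* were read under older symbols.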

Additional observations from a re-analysis of the deposited data

How the results depend on the processing

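Calls of *Nr4a3*, *Egr1* and *Egr2* against Tn kept their direction and side of the threshold under all alternatives run. With 12 libraries left out in turn, the genes called among the 8 ranged from 6 to 7 in Teff1, 6 to 7 in Teff2 and 4 to 7 in Tex against Tn, the lowest without Tex replicate 2. Of the calls of the 8 genes against Tn, the replicate block changed those of *Nr4a1*, lost in Teff2 (adjusted p = 0.0505) and Tex (0.0577), and no other. Over all genes, called counts moved for Teff2 against Teff1 (96) to 497 with DESeq2, 39 with only the compared groups and 277 with the replicate block (23 to 140 leaving out libraries), for Tex against Teff2 (1) to 5, 0 and 221 and to 0 with upper-quartile scaling (0 to 1), and for Tex against Teff1 (431) to 1047 with DESeq2 and 674 with the block (112 to 544). Without Tn replicates 1 and 3 they were 3015, 3334 and 3944 in Teff1, Teff2 and Tex against Tn, from 7012, 7010 and 7584, and without replicate 1 of the cultured states Tex against Teff2 had 0. The cause was not tested.

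Signs changed only for values that no test called. With no filter, *Nab1* in Teff1 against Tn was 0.02 and *Egr2* in Teff2 against Teff1 -0.05 (limma -0.01). *Egr2* in Tex against Teff2 was 0.02 with the block and with limma. In Tex against Teff1, *Egr3* was -0.01 with DESeq2 or its size factors, -0.03 with no filter, -0.04 with the block and -0.05 with limma, and *Nr4a2* was 0.13 with the block and 0.05 with limma. Without replicate 1 of the cultured states, *Nr4a1*, *Nr4a3* and *Nab1* in Teff2 against Teff1 were 0.41, 0.65 and 0.03, and *Nr4a1*, *Nr4a2*, *Nr4a3* and *Nab2* in Tex against Teff1 were 0.13, 0.72, 0.25 and 0.06. Leaving out single libraries gave, in Teff2 against Teff1, *Egr2* -0.34 to 0.40, *Egr3* -0.53 to 0.52, *Nab1* -0.36 to 0.01, *Nr4a1* -0.54 to 0.19, *Nr4a2* -0.08 to 0.95 and *Nr4a3* -0.50 to 0.42. In Tex against Teff2 it gave *Egr1* -0.31 to 0.17, *Egr2* -0.27 to 0.36, *Egr3* -0.59 to 0.55, *Nab1* -0.11 to 0.03, *Nab2* -0.29 to 0.46, *Nr4a1* -0.52 to 0.03, *Nr4a2* -0.61 to 0.03 and *Nr4a3* -0.79 to 0.15, in Tex against Teff1 *Egr3* -0.34 to 0.29, *Nr4a2* -0.35 to 0.59 and *Nr4a3* -0.69 to 0.01, and in Teff1 against Tn *Nab1* -0.29 to 0.08.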
